A study of Homo sapiens with 29 samples.

Results

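Solute carriers are the largest family of membrane transporters in human cells, and 99 of the 4592 genes measured by DRB/TTchem-seq in this study carry one of its current symbols. Members were chosen by name alone: an Ensembl identifier in the deposited tables had to map to a current symbol made of SLC, a family number, a letter and a member number, or to an SLCO symbol. The rule used no wave position or coverage, but it was set with earlier results of these data known. Each library was made from HEK293, a line derived from human embryonic kidney, after the cells had carried a lentiviral short hairpin RNA for 4 days. Control cells received the nonsense hairpin (shCtrl) and THOC5-depleted cells a hairpin against THOC5 (shTHOC5), a subunit of the THO complex that works in transcription and mRNA export. Both were held in 100 μM DRB for 3.5 h, released for 10, 20, 30 or 40 min, and labelled with 1 mM 4-thiouridine in a 10 min pulse. DRB inhibits CDK9 and holds RNA polymerase II (Pol II) near promoters, so that washing it out lets a wave of labelled RNA move into genes. The question was how far that wave had moved at each time in depleted and in control cells. There was 1 library per condition and release time, 8 in all, so every difference below compares single libraries and carries no replicate error and no p-value. The tables do not list THOC5 itself, and the degree of its depletion was therefore not measured here.

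Solute carriers move amino acids, sugars, ions, metals, vitamins and organic acids across the plasma membrane and the membranes of mitochondria, lysosomes and the Golgi apparatus. Many are used in 1 tissue only: kidney epithelium, intestine, liver and brain each have members that other cells leave untranscribed, while transporters for common amino acids, protons, zinc and mitochondrial substrates are used by nearly all dividing cells. Some of these genes also have several start sites, spread over many kilobases, and the wave can begin at any start that the cell uses.

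Of the 99 solute carrier genes, 28 (28.3%) reached a coverage of 100 rpm, a unit in which all listed genes of a series sum to 1000000, in both series and are called expressed, against 50% of all listed genes. The other 71 members comprise 61 silent members under 100 rpm in both series (61.6%, against 39.8% of all listed genes), 4 that reached it in control cells only (against 2.64% of all listed genes) and 6 that reached it in THOC5-depleted cells only (against 7.51%). The median member had 47.5 rpm in control and 68.5 rpm in depleted cells, against 110 and 132 rpm for all listed genes. Coverage is 1 value per gene and series, whose making from the 4 release times is not described. The paper's coverage filter counts the region from 2 kb before to 120 kb behind the TSS, which can hold RNA of neighbouring genes. The words "expressed" and "silent" stand for this value only, and an expressed member need not be transcribed itself. In 13 of the 28 expressed members at least 1 library had its peak inside another protein-coding gene. The share of expressed members differed between the solute classes. Of 4 mitochondrial carriers 3 were expressed, namely the aspartate-glutamate carriers SLC25A12 and SLC25A13 and the S-adenosylmethionine carrier SLC25A26. Of 11 metal transporters 5 were expressed, all of the SLC30 and SLC39 zinc transporter families (SLC30A7, SLC30A9, SLC39A9, SLC39A10 and SLC39A14). The 25 carriers of inorganic ions and protons held 8 expressed members, the 8 carriers of nucleosides, vitamins and cofactors held 3, and the 9 sugar and nucleotide sugar carriers held 3. Of 20 amino acid transporters 4 were expressed: SLC7A1 (cationic amino acids), SLC38A1 (glutamine), SLC1A3 (glutamate) and SLC6A6 (taurine). Among 19 carriers of organic ions, acids and drugs, a group used mostly in kidney, liver and intestine, SLC16A10, an aromatic amino acid transporter, was the 1 expressed member, and the 6 listed SLCO and 6 listed SLC22 genes were all silent. Coverage ran from 2.22 rpm for SLC1A6, a neuronal glutamate transporter, to 6094 rpm for SLC5A10 in control cells.

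**Figure D1:**
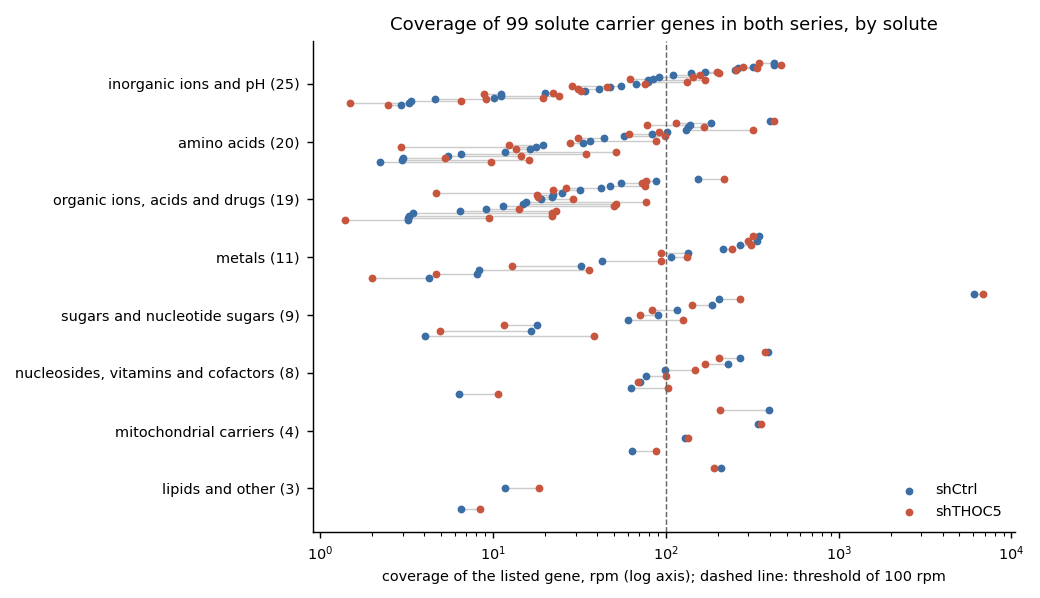
Coverage of the 99 solute carrier genes in rpm on a log axis, by the solute their family carries (number of members in parentheses); blue points are control cells, red points THOC5-depleted cells, and a grey line joins the values of each gene. The dashed line marks 100 rpm: 28 members lie right of it in both series, 61 lie left of it in both, and 1 sugar carrier, SLC5A10, stands at 6094 and 6861 rpm. Coverage can include RNA of neighbouring genes.

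SLC7A2, a cationic amino acid transporter on chromosome 8, had 138 rpm in control and 78.2 rpm in depleted cells and so changed sides of the threshold. Its wave peak was called at 48.0, −2.0, −2.0 and 17.6 kb from the TSS at 10, 20, 30 and 40 min in control cells and at −2.0 kb in each library of depleted cells. No downstream course was seen in either series. A position of −2.0 kb is the first position of the window, which runs from 2 kb in front of the TSS to 120 kb behind it. The members nearest the threshold in control cells were SLC17A5 (102 rpm, the lysosomal sialic acid exporter) and SLC39A10 (108 rpm) above it, and SLC44A1 (99.2 rpm, a choline transporter) and SLC4A7 (91.2 rpm, a bicarbonate transporter) below it.

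A wave that travels should give a peak farther from the TSS at each later release time. Such an order was met by 6 of the 99 members (6.06%) in control cells, against 13.2% of all listed genes, and by 28 members (28.3%) in THOC5-depleted cells, against 31.3%. Among the 28 expressed members it was met by 3 in control cells (10.7%, against 20.4% of expressed genes) and by 14 in depleted cells (50%, against 43.7%). Members in order were more numerous in depleted than in control cells, as were listed genes as a whole. Order in both series was found in 4 members, among them SLC38A1, SLC25A26 and SLC4A7, that is 4.04% of members against 9.23% of listed genes, and 3 of these are expressed (10.7%, against 15.6% of expressed genes). The authors' filter mark stood on 1 member in control cells (1.01%, against 4.92% of listed genes and 9.83% of expressed genes), and on 11 in depleted cells (11.1%, against 10%): SLC1A3, SLC7A1, SLC9B2, SLC16A10, SLC19A1, SLC23A2, SLC26A5, SLC26A8, SLC37A3, SLC38A1 and SLC39A10. All 11 belonged to the 28 expressed members (39.3%, against 19% of expressed genes), and no member carried the mark in both series.

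A peak at the first position, where no wave was called past the TSS, was less frequent in members than in listed genes at 10 min and near the background later in control cells. It was found in 26.3%, 28.3%, 20.2% and 19.2% of members at 10, 20, 30 and 40 min in control cells, against 33.8%, 27%, 18.9% and 15.6% of listed genes. In depleted cells it was found in 37.4%, 31.3%, 22.2% and 17.2% of members, against 47.5%, 30.2%, 21.2% and 15%. Among the 28 expressed members 5, 6, 4 and 4 had it in control cells (against 36.3%, 25.5%, 15.5% and 11.7% of expressed genes) and 8, 6, 5 and 3 in depleted cells (against 54.2%, 28.2%, 18.9% and 11.4%). Both series thus had fewer such members at 40 min than at 10 min.

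The annotation divided the expressed members into those with a wave peak in their own gene and those with a peak elsewhere. In 11 of the 28 (39.3%, against 20.2% of expressed genes) the wave peak lay inside the member and outside any other protein-coding gene in all 8 libraries. Among them were SLC1A3, SLC7A1, SLC9B2, SLC16A10, SLC19A1, SLC23A2, SLC25A26, SLC37A3, SLC38A1 and SLC39A10. In 13 others (46.4%, against 43.7% of expressed genes) at least 1 library had its peak inside another protein-coding gene, and in 9 of these all 8 libraries did (32.1%, against 22.1%). The remaining 4 were SLC5A10, SLC6A6, SLC25A13 and SLC30A9. No wave peak of an expressed member lay in an exon of its canonical transcript, and most peaks inside a member were in intron 1, for example 12 of the 15 intronic peaks of depleted cells at 40 min.

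**Figure D2:**
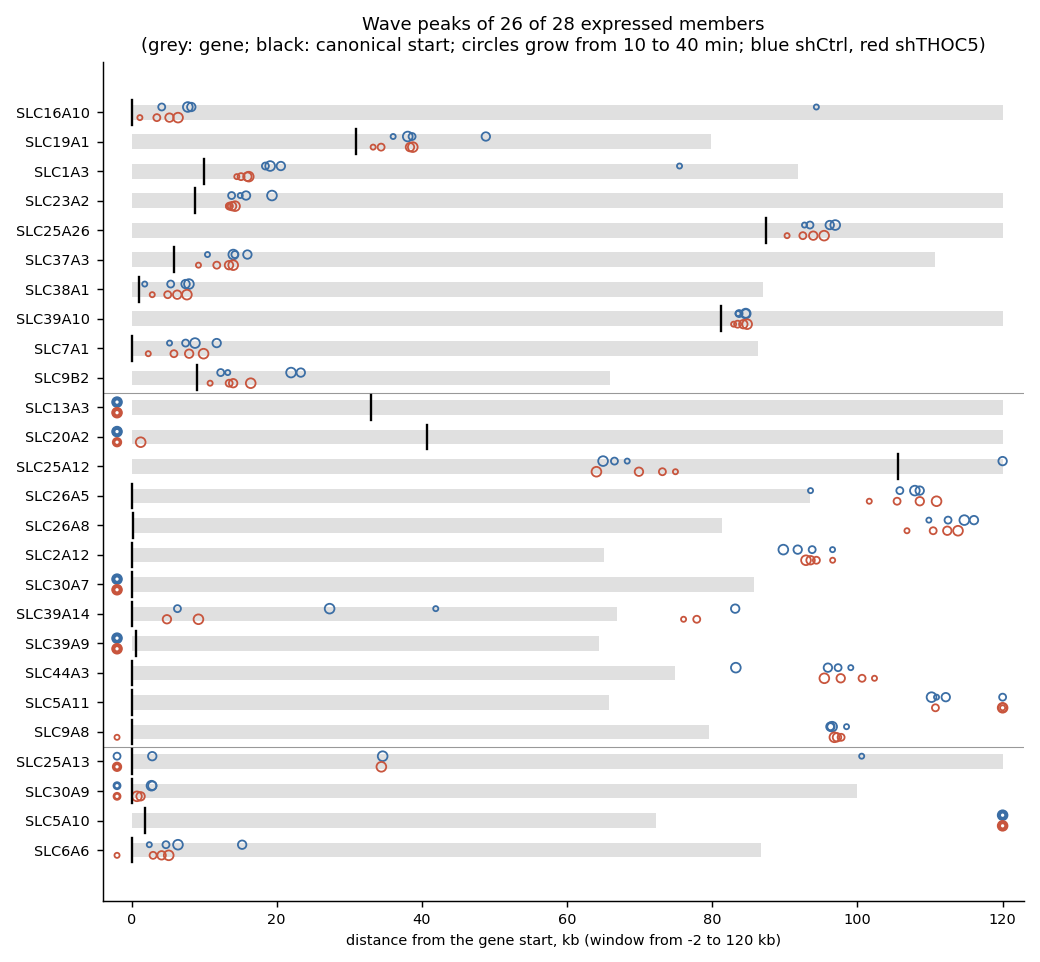
Wave peaks of 26 of the 28 expressed members in kb from the gene start (x axis); grey bars are the genes, drawn up to 120 kb, black ticks the starts of the canonical transcripts, and circles grow with release time from 10 to 40 min (blue control cells, red THOC5-depleted cells). Top block: 10 members with all peaks in their own gene, where red and most blue circles follow the black tick rather than the gene start. Middle block: 12 members with a peak in another coding gene, many beyond the end of the bar. Bottom block: the remaining 4.

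The start of the Ensembl canonical transcript lay over 2 kb downstream of the gene start in 8 of the 11 own-gene members, against 43% of expressed genes with own-gene peaks and 19.9% of all expressed genes. Such a late canonical start was found in 35 of the 99 members (35.4%, against 22.6% of listed genes). In the own-gene members with one, the distance was for example 87.4 kb in SLC25A26, 81.2 kb in SLC39A10, 30.9 kb in SLC19A1 (the reduced folate carrier), 10.0 kb in SLC1A3, 9.07 kb in SLC9B2, 8.78 kb in SLC23A2 (a vitamin C transporter) and 5.90 kb in SLC37A3. Counted from the gene start, 13 of the 44 wave peaks of the 11 members in depleted cells were within 10 kb (29.5%, against 47.6% for expressed genes with own-gene peaks), and 10 of 44 in control cells (22.7%, against 33.1%). Counted from the canonical start, all 44 peaks of depleted cells were within 10 kb (against 78.8%) and 33 of 44 in control cells (75%, against 59.2%).

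The sequences at both starts are shown for SLC25A26 and SLC39A10 because their peaks in all 8 libraries lay within 9.55 kb downstream of the canonical start. They differ in CpG content, and each runs from 250 bases in front of the start to 50 bases into the transcript, 5′ to 3′ on the gene's strand in GRCh38, with every CG dinucleotide in capitals. SLC25A26 (plus strand) had 3 CG at chr3:66133360-66133659 and 27 CG at chr3:66220751-66221050. SLC39A10 (plus strand) had 1 CG at chr2:195575727-195576026 and 30 CG at chr2:195656976-195657275. SLC7A1 (minus strand, chr13:29595639-29595938), whose gene and canonical starts coincide, had 49 CG.
SLC25A26 gene start: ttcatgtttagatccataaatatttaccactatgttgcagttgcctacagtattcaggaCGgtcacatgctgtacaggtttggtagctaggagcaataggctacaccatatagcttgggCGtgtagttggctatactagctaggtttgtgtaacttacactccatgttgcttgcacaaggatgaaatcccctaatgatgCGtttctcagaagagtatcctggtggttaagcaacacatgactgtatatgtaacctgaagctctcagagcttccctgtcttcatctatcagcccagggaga
SLC25A26 canonical start: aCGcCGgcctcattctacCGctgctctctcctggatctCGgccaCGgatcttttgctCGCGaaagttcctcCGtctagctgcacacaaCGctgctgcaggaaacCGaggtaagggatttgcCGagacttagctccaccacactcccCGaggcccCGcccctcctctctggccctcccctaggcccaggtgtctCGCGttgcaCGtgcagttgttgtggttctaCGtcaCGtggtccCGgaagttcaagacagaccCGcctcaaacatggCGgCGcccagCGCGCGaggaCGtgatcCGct
SLC39A10 gene start: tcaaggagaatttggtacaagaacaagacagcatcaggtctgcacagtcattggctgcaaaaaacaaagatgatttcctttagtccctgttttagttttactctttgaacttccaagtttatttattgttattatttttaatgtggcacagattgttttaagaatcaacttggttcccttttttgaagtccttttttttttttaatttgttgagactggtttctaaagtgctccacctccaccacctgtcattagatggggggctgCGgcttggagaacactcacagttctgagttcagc
SLC39A10 canonical start: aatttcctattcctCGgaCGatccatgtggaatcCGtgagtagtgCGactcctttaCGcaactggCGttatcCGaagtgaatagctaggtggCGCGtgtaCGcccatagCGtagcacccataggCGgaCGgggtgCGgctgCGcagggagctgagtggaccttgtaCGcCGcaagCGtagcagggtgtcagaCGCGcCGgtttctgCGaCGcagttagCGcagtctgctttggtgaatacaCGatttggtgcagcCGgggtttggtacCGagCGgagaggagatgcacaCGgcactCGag
SLC7A1 gene and canonical start: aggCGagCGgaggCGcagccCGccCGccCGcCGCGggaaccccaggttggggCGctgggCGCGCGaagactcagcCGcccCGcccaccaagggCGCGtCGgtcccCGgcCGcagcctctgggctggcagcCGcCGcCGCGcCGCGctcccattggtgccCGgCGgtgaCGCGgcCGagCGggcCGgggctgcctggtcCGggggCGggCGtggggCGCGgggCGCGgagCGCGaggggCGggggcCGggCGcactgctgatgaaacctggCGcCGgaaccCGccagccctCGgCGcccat
Over the 8 own-gene members with a late canonical start, the 300 bases at the canonical start held more CG than those at the gene start in 8 of 8 (against 83% of the 200 expressed own-gene genes with such a start, and 66.2% of all 1037 listed genes with one). The median count was 3 at the gene start and 25.5 at the canonical start. They were 5 and 30 over those 200 expressed genes and 7 and 24 over the 1037 listed genes.

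SLC25A26 had peaks in order in both series, between 90.3 and 96.9 kb from the gene start. From the canonical start its wave peak in control cells lay at 5.32, 6.07, 8.79 and 9.55 kb at 10, 20, 30 and 40 min, and in depleted cells at 2.92, 5.09, 6.52 and 8.02 kb. Depleted cells were behind control cells at each of the 4 times. The deposited rate of SLC25A26 was 2.01 kb/min for control and 1.98 for depleted cells. The same fit with the window moved to the canonical start gave 0.27 and 0.24 kb/min. The deposited rate is the slope through the 4 peaks and a point at 0 min and position 0, so that a late start adds its own distance to the rate. Position 0 is the window start, so in both fits the 0 min point lay 2 kb in front of the start in use. SLC39A10, a zinc importer, had peaks 2.299, 2.44, 3.37 and 3.36 kb from its canonical start in control cells and 1.69, 2.24, 3.03 and 3.56 kb in depleted cells. Its deposited rates of 1.74 and 1.75 kb/min became 0.12 and 0.12 kb/min.

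SLC38A1, SLC7A1 and SLC16A10 have their canonical start within 1 kb of the gene start. SLC38A1, the glutamine transporter that is also in the study's list of THOC5-dependent genes, had peaks at 1.82, 5.39, 7.44 and 7.91 kb from the gene start in control cells and at 2.85, 4.98, 6.29 and 7.63 kb in depleted cells. Depleted cells led SLC38A1 by 1.03 kb at 10 min and lagged at the other 3 times. SLC7A1 had peaks at 5.23, 7.45, 11.7 and 8.74 kb in control cells and 2.31, 5.84, 7.94 and 9.92 kb in depleted cells, so that the lag at 10, 20 and 30 min became a lead of 1.18 kb at 40 min. SLC16A10 had peaks at 94.3, 4.16, 8.23 and 7.75 kb in control and at 1.15, 3.49, 5.23 and 6.41 kb in depleted cells. Its 10 min peak in control cells stood apart from the other 7, and its deposited rate in control cells was −0.67 kb/min.

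A further 5 own-gene members showed an even course in depleted cells and breaks in control cells. From the canonical start, SLC19A1 reached 2.36, 3.46, 7.43 and 7.82 kb in depleted cells and 5.11, 7.72, 17.9 and 7.12 kb in control cells. SLC9B2, a sodium-proton exchanger, reached 1.76, 4.38, 4.93 and 7.35 kb in depleted and 4.19, 3.21, 14.2 and 12.9 kb in control cells. SLC37A3 reached 3.32, 5.84, 7.52 and 8.10 kb in depleted and 4.56, 8.34, 10.1 and 8.12 kb in control cells. In each of these 3 control courses at least 1 later peak lay nearer the start than the peak before it. SLC23A2 reached 4.58, 4.70, 5.07 and 5.47 kb in depleted and 6.19, 5.00, 6.99 and 10.6 kb in control cells. SLC1A3 moved from 4.49 to 6.13 kb between 10 and 40 min in depleted cells. The 10 min peak of SLC1A3 in control cells was 65.5 kb from the start and the later ones 8.42, 10.6 and 9.08 kb. Order held in all 11 own-gene members in depleted cells (against 73.1% of expressed genes with own-gene peaks) and in 3 of 11 in control cells (27.3%, against 26.2%).

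**Figure D3:**
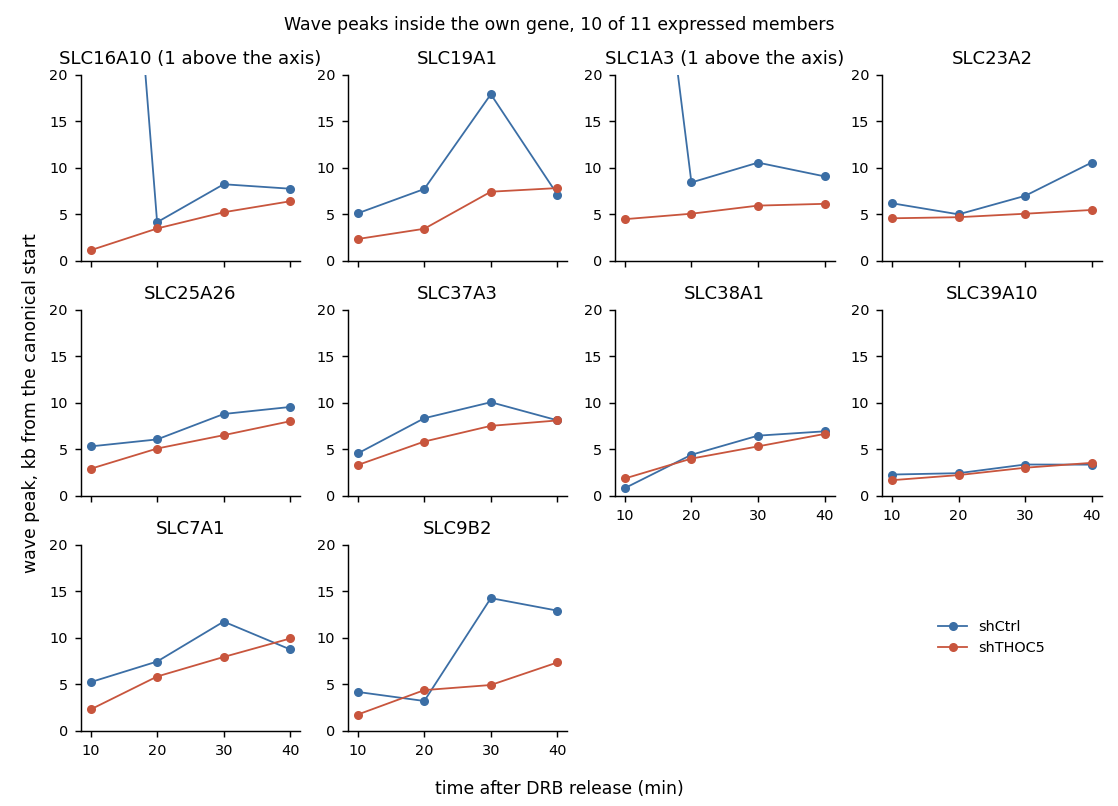
Wave peaks of 10 of the 11 expressed members whose peaks all lie in their own gene, in kb from the canonical start (y axis) against minutes after DRB release (x axis), 1 library per point (blue control cells, red THOC5-depleted cells). Red lines rise at each step and stay under 10 kb; 2 control points, SLC16A10 at 94.3 kb and SLC1A3 at 65.5 kb, both at 10 min, lie above the axis.

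Upon depletion of THOC5 the wave peak of the own-gene members lay nearer the TSS at most times. It was nearer in 10 of 11 at 10 min (against 86.7% of expressed genes with own-gene peaks), in 10 of 11 at 20 min (against 77.2%), in 11 of 11 at 30 min (against 76.1%) and in 8 of 11 at 40 min (against 60.9%). The median difference, shTHOC5 minus shCtrl, was −2.40 kb at 10 min with a range from −93.2 to 1.03 kb. It was −0.98 kb at 20 min (−4.26 to 1.17 kb), −3.00 kb at 30 min (−10.5 to −0.34 kb) and −1.34 kb at 40 min (−5.55 to 1.18 kb). The median over all 465 expressed genes with own-gene peaks was −2.72, −1.45, −2.03 and −0.77 kb. The exceptions were SLC38A1 at 10 min, SLC9B2 at 20 min, and SLC7A1, SLC19A1 and SLC39A10 at 40 min. Deposited rates were lower in depleted cells in 7 of the 11 (against 50.3%), but the slope over the 4 release times alone was lower in 4 of 11 (against 35.3%), so the direction differed with and without the point at 0 min. Among the 4 members with order in both series the deposited rate was lower in depleted cells in 4 of 4 (against 70.3% of genes with order in both series), and the 4-time slope in 3 of 4 (against 59.2%). The peak of these 4 was nearer the TSS upon depletion in 2 at 10 min (against 60.8% of genes in order in both series), 4 at 20 min (against 72.6%), 3 at 30 min (against 77.8%) and 4 at 40 min (against 75.7%).

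Over all 28 expressed members the share with a nearer peak was close to the background, and at 10 min the share with a farther peak was above it. In depleted cells 14 members had the peak closer to the TSS at 10 min (50%, against 49.1% of expressed genes), 15 at 20 min (53.6%, against 50.7%), 18 at 30 min (64.3%, against 57.8%) and 15 at 40 min (53.6%, against 53.4%). It was farther in 8 at 10 min (28.6%, against 13%), 6 at 20 min (against 24.5%), 5 at 30 min (against 25.6%) and 9 at 40 min (against 32.9%). The medians were −0.30, −0.26, −1.77 and −0.10 kb. In the 17 expressed members without own-gene peaks in all libraries the median difference was 0 at each time.

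**Figure D4:**
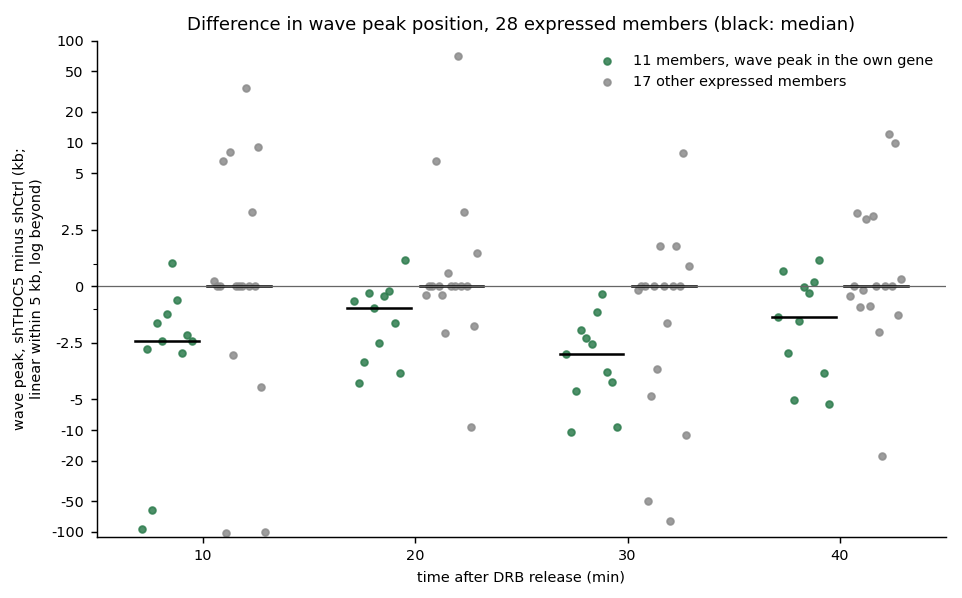
Difference in wave peak position, shTHOC5 minus shCtrl, in kb (y axis, linear within 5 kb and logarithmic beyond) at each release time (x axis) for the 28 expressed members. Green points are the 11 own-gene members, grey points the other 17, and black bars medians: the green medians lie at −2.40, −0.98, −3.00 and −1.34 kb and the grey ones at 0.

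Of 13 expressed members with a peak in another coding gene, 5 had all 4 peaks in order along that gene in depleted cells. In control cells 2 did, and the share over all expressed genes was not computed. SLC44A3, a choline transporter-like gene of 74905 bp, had its 8 peaks 83.2 to 102 kb from its TSS, past its own end and inside CNN3, an actin-binding calponin gene on the opposite strand. From the start of CNN3 they lay at 7.68, 9.44, 10.8 and 23.5 kb in control cells and at 4.42, 6.13, 9.07 and 11.3 kb in depleted cells, in order in both. Because CNN3 is read toward SLC44A3, a lag of 3.26 kb along CNN3 at 10 min was a lead of 3.26 kb in the coordinates of SLC44A3. SLC2A12, a glucose transporter gene, likewise had its 8 peaks in TBPL1, a TATA-binding-protein-like gene on the opposite strand. They lay 2.83, 5.64, 7.63 and 9.61 kb from the TBPL1 start in control cells and 2.82, 5.05, 5.86 and 6.49 kb in depleted cells.

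SLC26A8 and SLC26A5, an anion transporter of sperm and the hair cell motor protein prestin, carried the authors' mark in depleted cells although their peaks lay past the gene end in all 8 libraries. The peaks of SLC26A8 lay in SRPK1, a kinase of splicing factors on the same strand, at 3.05, 6.66, 8.61 and 10.1 kb from its start in depleted cells and at 6.07, 8.71, 12.3 and 10.95 kb in control cells. The peaks of SLC26A5 in depleted cells lay 0.19, 4.02, 7.15 and 9.46 kb from the start of DNAJC2, a ribosome-associated chaperone gene. This stretch is also within PSMC2, a proteasome subunit gene on the opposite strand. In control cells the SLC26A5 peaks lay outside DNAJC2 at 10 min. They lay 4.40, 7.14 and 6.47 kb from its start at 20, 30 and 40 min, not in order. The deposited rates were 2.37 kb/min for SLC26A8 and 2.33 kb/min for SLC26A5 in depleted cells, and the slopes over the 4 times 0.23 and 0.31 kb/min. In SLC25A12, 7 of 8 peaks lay in HAT1, a histone acetyltransferase gene, at 9.11, 10.9 and 12.4 kb from its start at 10, 20 and 40 min in control cells and at 2.47, 4.27, 7.50 and 13.4 kb at the 4 times in depleted cells, which were ahead at 40 min.

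**Figure D5:**
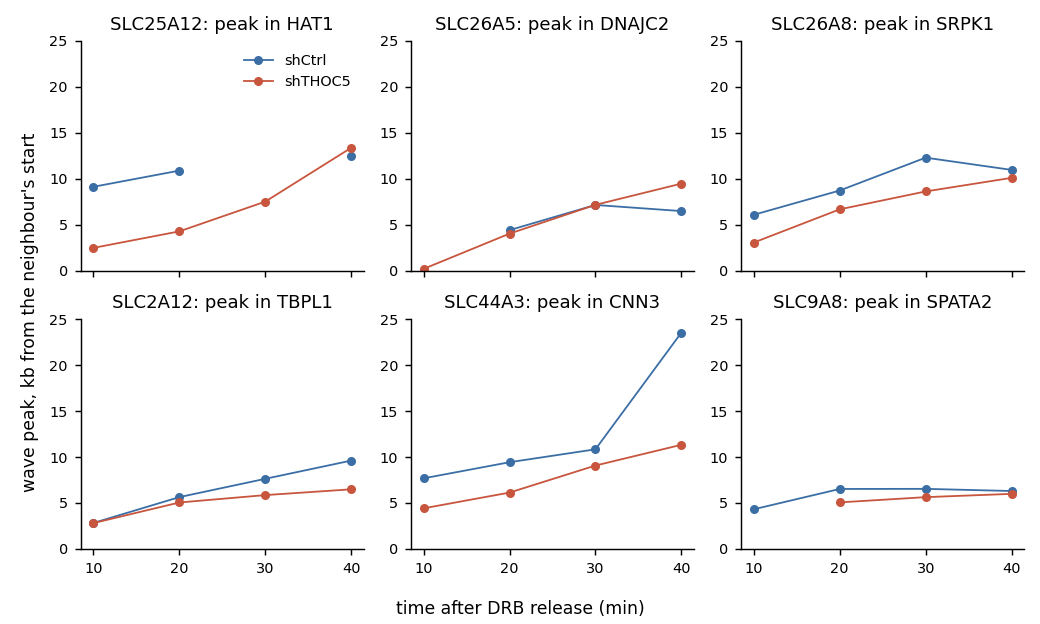
Wave peaks of 6 of the 13 expressed members with a peak in another coding gene, in kb from the canonical start of that neighbour (y axis), against minutes after DRB release (x axis), 1 library per point (blue control cells, red THOC5-depleted cells). Peaks outside the neighbour are not drawn. In HAT1, SRPK1 and CNN3 the red point at 10 min lies below the blue one, and in TBPL1 both lie at 2.8 kb.

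Other members had peaks past their end or at a fixed place. In 7 expressed members the peak lay past the gene end in all 8 libraries (25%, against 12.1% of expressed genes): among them SLC5A10, SLC5A11, SLC26A5, SLC26A8, SLC2A12 and SLC44A3. SLC5A10, a mannose and fructose cotransporter gene with 6094 rpm in control and 6861 rpm in depleted cells, had every peak at 120 kb, the last position of the window, and its window holds the small nucleolar RNA genes SNORD3B-1 and SNORD3B-2. SLC9A8, the Golgi sodium-proton exchanger with the second-highest coverage, had 7 of 8 peaks in SPATA2, 96.3 to 98.5 kb from its TSS, and its deposited rate of 2.97 kb/min in depleted cells joined 1 peak at the window's first position to 3 peaks there. A first position in all 8 libraries was found in SLC13A3, SLC30A7 and SLC39A9 (10.7%, against 7.75% of expressed genes). In each of these 3 the first position lay inside another coding gene, at 2.98 kb from the start of TP53RK for SLC13A3, at 0.77 kb from that of EXTL2 for SLC30A7 and at 2.28 kb from that of ERH for SLC39A9. SLC20A2, a phosphate transporter, had 7 of 8 peaks at the first position, inside SMIM19.

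Deposited rates over 1 kb/min were found in 11 expressed members in each series (39.3%, against 34.4% of expressed genes in control and 30.3% in depleted cells). The 10 min peak was over 40 kb from the TSS in all 11 in control cells (against 70.9% of expressed genes with such a rate) and in 10 of 11 in depleted cells (against 68%). The slope over the 4 times was under 0.5 kb/min in 11 and 10 of them (against 59.7% and 62.7%).

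Among the remaining expressed members, SLC6A6 had a course near the TSS. Its peaks were at 2.45, 4.74, 15.2 and 6.40 kb in control cells and at −2.0, 2.97, 4.14 and 5.12 kb in depleted cells, nearer the TSS upon depletion at each time. SLC30A9, a zinc transporter gene, left the first position at 30 min in both series, to 2.86 kb in control and 1.24 kb in depleted cells. SLC25A13 had peaks at 101, −2.0, 2.85 and 34.6 kb in control cells and at −2.0 kb until 30 min and 34.4 kb at 40 min in depleted cells.

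Coverage of the expressed members differed little between the series, with a median ratio of shTHOC5 over shCtrl of 1.05 against 1.01 for all expressed genes. SLC38A1 rose from 132 to 319 rpm, the 1 expressed member with a ratio of 1.5 or more (3.57%, against 13.7% of expressed genes). SLC25A13, from 393 to 207 rpm, and SLC6A6, from 182 to 114 rpm, were the 2 with a ratio as low (7.14%, against 10.4%). The next ratios were those of SLC13A3 (140 and 203 rpm) and SLC9B2 (110 and 157 rpm) upward and of SLC19A1 (228 and 168 rpm) downward. SLC7A1 had 403 and 423 rpm and SLC9A8 422 and 344 rpm. Over all 99 members 33 had a ratio of 1.5 or more (33.3%, against 27.6% of listed genes) and 15 as low (15.2%, against 15.8%), of which 27 and 12 were silent members.

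The 6 members that reached 100 rpm in depleted cells only included 3 chloride and bicarbonate carriers: SLC12A2 (79.1 and 169 rpm), SLC12A7 (78.4 and 133 rpm) and SLC4A7 (91.2 and 143 rpm). The other 3 were SLC44A1, SLC49A4 and SLC35G1. SLC4A7 had order in both series, with peaks at −2.0, 4.12, 4.65 and 8.79 kb in control and −2.0, 3.28, 4.89 and 6.64 kb in depleted cells. SLC12A2 stayed at the first position until 30 min in control cells and until 20 min in depleted cells, and its peaks at 40 min were at 6.92 and 5.16 kb.

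Silent members rarely showed a course. Order was met by 2 of 61 in control cells (3.28%, against 4.7% of silent genes) and by 10 of 61 in depleted cells (16.4%, against 14.1%). In depleted cells SLC22A3, an organic cation transporter with 1.38 rpm, met the order with peaks at −2.0, 43.6, 115 and 120 kb, and the last of these is the window's end. Some silent members had orderly peaks near a start in 1 series, and the peaks of their other series were not in order. SLC45A4 (89.9 rpm in control cells) had peaks at 3.41, 6.11, 7.98 and 10.0 kb in control cells, and SLC22A23 (76.2 rpm) at 3.64, 6.12, 7.58 and 7.97 kb in depleted cells. The 10 min peak of SLC45A4 in depleted cells was at 120 kb. SLC22A23 had peaks at 43.8, 9.40, 18.2 and 75.4 kb in control cells. SLC38A9, an arginine-sensing transporter of the lysosome, whose canonical start is 60.9 kb into the gene, had peaks 1.12, 1.68, 2.26 and 4.63 kb from that start in depleted cells. SLC41A2, a magnesium transporter gene with 8.31 rpm in control and 36.0 rpm in depleted cells, had peaks at −2.0, 2.93, 4.86 and 9.07 kb in depleted cells. SLC7A11, the cystine-glutamate exchanger, rose from 11.7 to 51.8 rpm, and its peaks in depleted cells were at −2.0, −0.08, 4.24 and 12.9 kb. SLC35F2, over 100 rpm in control cells only, had peaks 3.43, 4.94, 7.62 and 7.92 kb from its canonical start, 69.5 kb into the gene, in depleted cells. Its 30 min peak in control cells was 120 kb from the gene start, at the window's end.

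Other transporter genes on the list were fewer, 48 in all: 26 ABC transporters, 18 P-type ATPases, 4 MFSD genes and no aquaporin. The 4 MFSD genes have older symbols of the solute carrier family and are set apart here by their current symbol only. Of the 48, 17 were expressed (35.4%, against 50% of all listed genes) and 27 silent (56.25%, against 39.8%). Among the 17, order was met by 1 in control (5.88%, against 20.4% of expressed genes) and by 10 in depleted cells (58.8%, against 43.7%). For the 28 expressed solute carriers these counts were 3 and 14. Marks stood on none of the 48 in control cells (against 4.92% of listed genes) and on 6 in depleted cells (12.5%, against 10%).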

How the data were processed

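DRB/TTchem-seq of 8 libraries was analysed, and the other samples of the study were not used here. The authors sequenced the labelled RNA in paired-end mode and deposited, for each series, a table of 4592 genes. It holds a wave peak position per library in bp from the window start, a filter mark and a coverage column. The authors' rate, deposited in kb/min, is a score with no fixed range, made by their single-gene module as a slope of position on time. The authors' coverage column is named for RPKM, but each deposited column totals 1000000, so it was treated as RPM. No read number is given for any library, so the depth and its precision are unknown. The submitters' processing notes name GRCh38, minimap2, CASAVA 1.8.2, Bowtie2 2.3.4.1 and deepTools 2.0, without roles. The paper gives minimap2 for Nanopore reads and CASAVA, Bowtie2 and deepTools for ChIP sequencing. For DRB/TTchem-seq it cites a published pipeline and names no aligner. The window, from 2 kb before to 120 kb behind the TSS, was used to convert positions to kb.

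Symbols, coordinates, neighbouring genes and canonical transcripts were taken from GENCODE release 44 (GRCh38), where 4590 of 4592 identifiers were found. The listed width was the annotated one for 4416 genes and 97 of the 99 members. The window was placed on the annotated gene start, so positions of the other 2 may be shifted. Sequences were read from the GRCh38 genome. CG was counted on 1 strand, being its own reverse complement. Rates were refitted by least squares with a point at 0 min and the window start, which returned each deposited rate. They were refitted with the window start moved to 2 kb before the canonical start. Shares over all listed or all expressed genes stand beside the main counts. The strand of the reads is not stated, so a member and an overlapping gene cannot be told apart. Values of 2 expressed members that the counts include are not reported here. Functions were tested on simulated data. Members, solute classes and lists were chosen with earlier results of these data known. Named by rule were SLC7A2, the marked members, the 5 highest in control coverage, those in order in both series (up to 4 each way by difference at 40 min), the 3 highest and 3 lowest coverage ratios of expressed members, those in the study's table of THOC5-dependent genes and the 2 nearest the threshold on each side; all other genes were named after their values were seen. Python 3.11.15, numpy 2.4.6, pandas 2.3.3, scipy 1.17.1 and matplotlib 3.10.9 were used.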

Additional observations from a re-analysis of the deposited data

How the results depend on the processing

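No paired analysis was possible because the labels give no replicate number shared between groups and no result comes from a test. Libraries of the 2 series were compared at matched release times. The 28 expressed members became 48 at a threshold of 50 rpm and 16 at 200 rpm. Members with wave peaks in order rose from 6 to 25 in control cells and from 28 to 53 in depleted cells when equal steps were allowed, and ranged from 16 to 20 and from 30 to 40 without 1 release time. The filter mark was rebuilt from order, coverage and a first peak at least 2 kb from the window start, that is at the TSS or past it. This gave 3 members against 1 in control cells. The median wave peak difference over expressed members became a mean of −11.4 kb at 10 min, 1.88 kb at 20 min (the opposite direction) and −6.47 kb at 30 min. At 40 min it became −1.53 kb over members in order in both series, −1.31 kb over peaks inside the gene in both series and −1.34 kb over own-gene members. That restriction, the rates from the canonical start and the 4-time slopes of own-gene members were chosen after seeing the data. The median rate of own-gene members in control and depleted cells was 0.43 and 0.38 kb/min as deposited. It was 0.26 and 0.22 kb/min from the canonical start, with the 0 min point 2 kb before that start. Over the 4 times alone it was 0.15 and 0.17 kb/min, where depleted cells were higher. The cause of these changes was not tested. Of 72 alternative values 54 were labelled the same, 17 moved and 1 took the opposite direction. The same meant a count within 1.5-fold, or a share or median inside a 95% interval over genes. Such intervals can be wide, so the label does not mean a near value. For the control rate of own-gene members the interval was −0.13 to 1.74 kb/min, and 0.15 was labelled the same as 0.43. Without replicates or read numbers, differences between single libraries cannot be told apart from differences between cultures or preparations. Matching RefSeq symbols and older symbols found 124 genes, the 99 among them.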
